A study of Mus musculus with 33 samples.

Results

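The lysosome is the acidic compartment in which cells break down proteins, lipids, sugars and nucleic acids, and autophagy is the route by which a cell wraps its own components in a membrane and delivers them there. Tfeb, Tfe3 and Mitf are related transcription factors that, when they enter the nucleus, bind CACGTG-type sequences near lysosomal and autophagy genes, and the kinase complex mTORC1 on the lysosomal surface holds them in the cytoplasm while nutrients are plentiful. In the brain, lysosomal enzymes are made by neurons and glia, and microglia, which take up debris, are rich in them. The expression of 46 genes of this system is described here, taken from a list of gene symbols. All 46 were among the 38355 genes of the count files and passed the filter for testing. They were kept in 6 roles, namely 3 transcription factors, 14 proteins of the lysosomal lumen, 6 of the lysosomal membrane, 7 of the proton pump, 13 of autophagy, and 3 that belong to mTORC1 or act on it (Mtor, Rptor and Flcn).

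RNA of hippocampal CA1 tissue was sequenced in 2 experiments, which hold 5 groups. In the experiment with mice aged 8 to 10 months, 6 APP mice received JQ1 at 50 mg per kg for 10 days, 6 APP mice received the vehicle (10% DMSO) for 10 days, and 4 WT mice received the vehicle. JQ1 is a small molecule that displaces BET proteins, readers of acetylated histones, from chromatin. The APP mice were of a transgenic line on a C57B/6 background, in which mutant human APP is driven by the Thy1 promoter and therefore expressed mainly in neurons. The strain label of the WT mice names the APP line, and they were taken as WT from their titles. In the young experiment, 8 C57B/6JRj WT mice aged 3 months received JQ1 at 50 mg per kg for 13 days and 8 received vehicle. The authors' methods name males for the purchased C57Bl/6j mice and females of the APP line for behavioral experiments. They also state that the mice for sequencing were killed after a water maze probe test. The sources do not tie the samples to litters or days, so p-values measure the spread between these samples only.

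Aged libraries held between 14605459 and 25339482 counts on genes, so that 3 counts corresponded to between 0.118 and 0.205 CPM of these totals. The CPM of genes given below are relative to library totals scaled by TMM. The young values were FPKM (fragments scaled to transcript length and library size), from which the depth is unknown. The library labelled APP JQ1 replicate 4 went against its label. It held App at 1781 CPM and Thy1 at 820 CPM, both below each of the 4 WT libraries (from 1853 and 841 CPM), whereas the other 11 APP libraries held at least 2070 and 1618 CPM. It had 0 counts of the microglial gene Cst7, against 252 to 1063 in the other APP libraries, while its Lnpep level of 30.5 CPM lay within the range of the other JQ1 libraries (23.4 to 41.6 CPM) and above every vehicle library (at most 8.85 CPM). WT replicate 4 held the choroid plexus transcript Ttr at 3065 CPM, against 9.44 to 21.3 CPM in the other WT libraries. Results are given with every library, and without APP JQ1 replicate 4 or without both libraries where this changed a call. Markers of CA1 pyramidal neurons were detected in every library, with summed levels of 556 to 897 CPM.

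In the comparison of vehicle-treated APP with vehicle-treated WT mice, 6 of the 46 genes rose and none fell in edgeR's quasi-likelihood test (adjusted p under 0.05), where 2.57% of all genes tested were called, 2.49% rising and 0.0825% falling. The same 6 rose without APP JQ1 replicate 4, where 3.32% of all genes did. Of the 6, 5 encode proteins of the lumen (Hexa, Gusb, Naglu, Npc2 and Grn) and 1 a subunit of the proton pump (Atp6v0d2), which passed the filter on low counts only through the APP libraries. In APP mice JQ1 against vehicle gave no call among the 46 genes by edgeR, where 1.08% of all genes were called. DESeq2 called 3, with Tfeb lower and Tmem106b and Rb1cc1 higher in JQ1-treated mice, where it called 2.64% of the genes it tested lower and 2.6% higher. An unadjusted p under 0.05 was found for 8 of the 46 (17.6% of all genes). In young WT mice none of the 44 genes tested was called by limma, where 0.00543% of all loci were called, and 1 of them had an unadjusted p under 0.05 (4.65% of all loci).

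**Figure D1:**
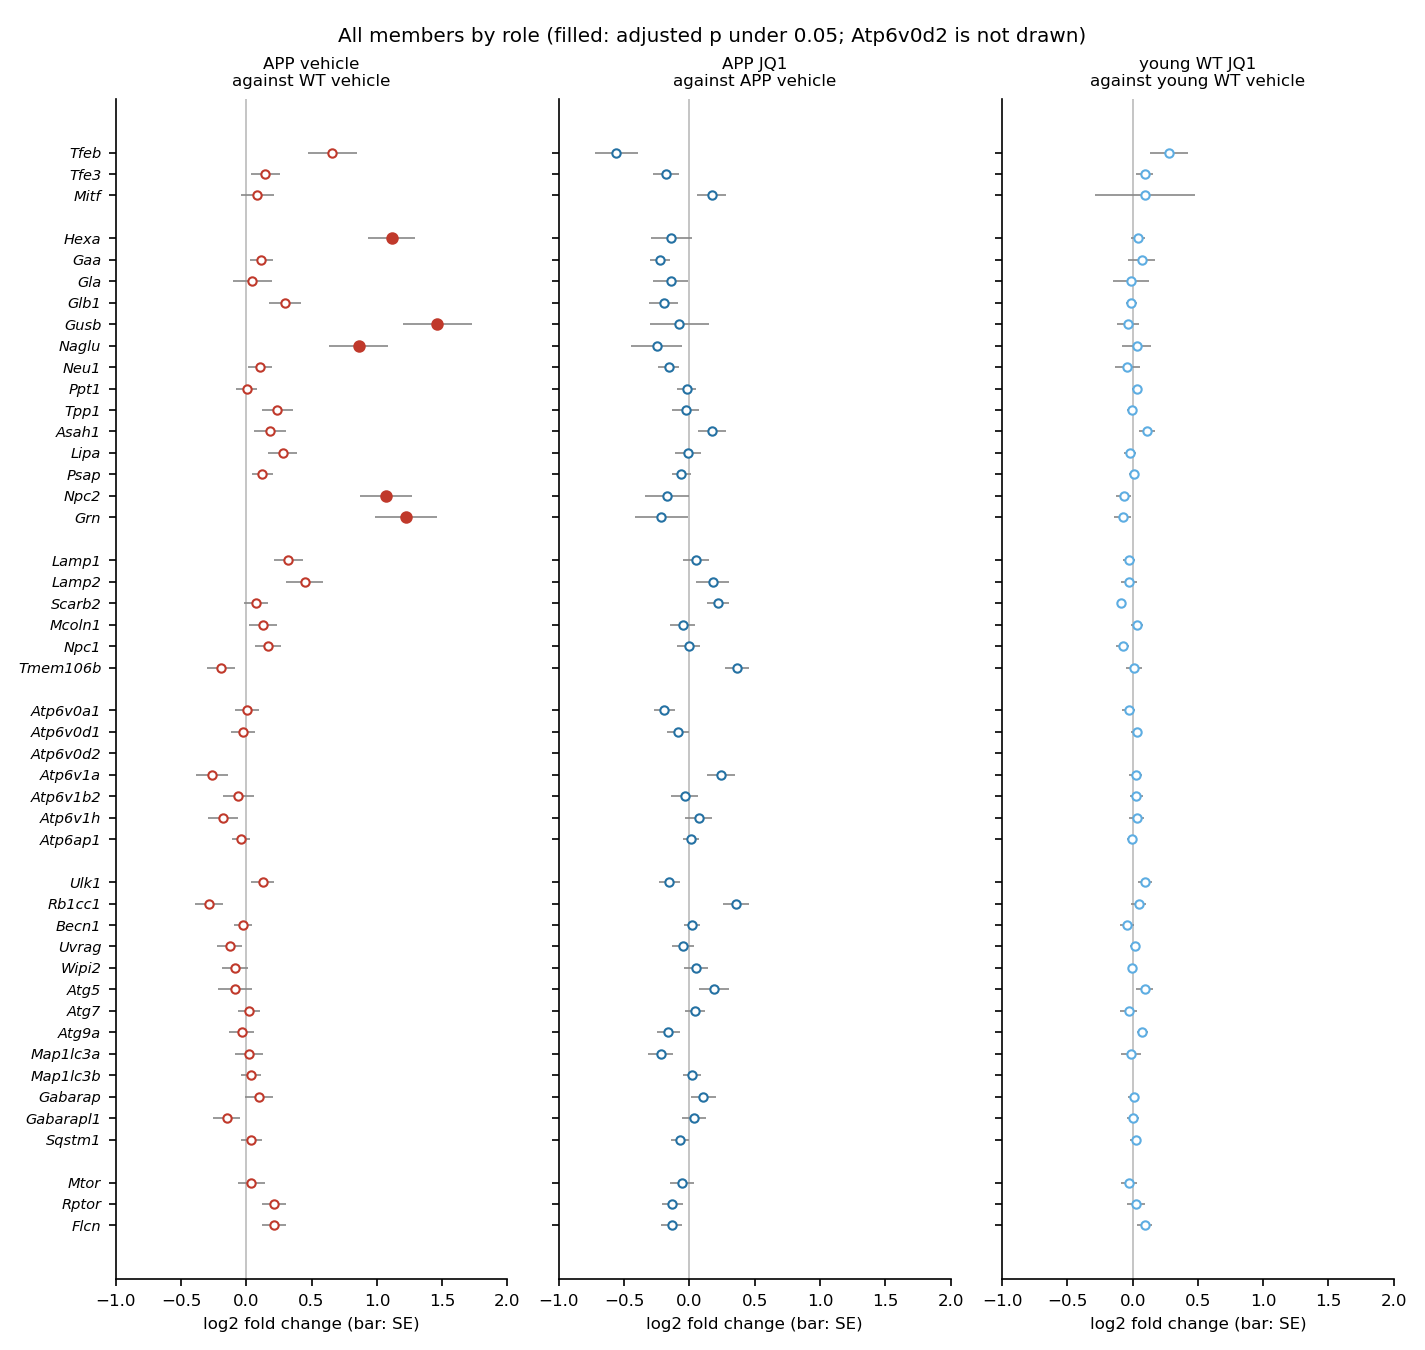
Log2 fold change of each gene (horizontal axis) with its standard error, grouped by role, in 3 panels, which set APP against WT mice given vehicle, APP mice given JQ1 against APP mice given vehicle, and young mice given JQ1 against young mice given vehicle (without Map1lc3b). Filled points have an adjusted p under 0.05, and Atp6v0d2 is left out because its WT libraries were at 0. The 5 filled lumen genes of the APP against WT panel lie between 0.86 and 1.46, while the autophagy genes of that panel lie between -0.29 and 0.12.

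The sequence upstream of the genes was examined because the 3 transcription factors bind CACGTG. Windows of 250 bases before and 50 bases after the start were found in RefSeq (build GRCm38.p6) for 38 of the 46 genes. The motif CACGTG, which reads the same on both strands, was present in 10 of these 38 genes (26.3%) and in 8.09% of all 27025 genes with a window. The 10 were Gaa, Gla, Glb1 and Naglu of the lumen, Lamp1 and Mcoln1 of the membrane, Atp6v0d1 and Atp6v1a of the pump, and Atg5 and Atg7 of autophagy. The longer TCACGTG, searched on both strands and contained in part of these matches, occurred in 9 of the 38 (23.7%) and in 4.29% of all genes with a window. Of the 5 lumen genes that rose in APP mice, Naglu held CACGTG in its window and Hexa, Gusb, Npc2 and Grn did not. A match is a description of the letters in the window and not a measurement of binding. Only these exact letters were searched, so a window without them says nothing of related sequences or of sites outside it.

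Sequences upstream of 3 of the lumen genes that rose and hold no CACGTG are printed first, then those of Lamp1 and Gaa, whose windows hold it and which were not called in APP against WT mice, and last single sites of 26 bases from Naglu, which rose, and Mcoln1, which was not called. All read 5′ to 3′ on the strand of the gene in GRCm38.p6 from RefSeq, and capitals mark CACGTG. Upstream here is relative to the RefSeq starts, which differ for some genes from the GENCODE M21 coordinates given elsewhere. By the GENCODE starts (101070012 for Naglu, 3500457 for Mcoln1) the Naglu motif and the second Mcoln1 site lie inside the gene.
Hexa, chr9:59539440-59539539, plus strand: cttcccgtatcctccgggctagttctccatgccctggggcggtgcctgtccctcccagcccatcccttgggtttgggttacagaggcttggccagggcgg
Gusb, chr5:130003050-130003149, minus strand: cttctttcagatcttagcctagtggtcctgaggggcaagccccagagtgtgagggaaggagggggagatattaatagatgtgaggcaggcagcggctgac
Npc2, chr12:84773153-84773250, minus strand: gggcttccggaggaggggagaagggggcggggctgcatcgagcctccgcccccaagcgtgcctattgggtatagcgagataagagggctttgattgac
Lamp1, chr8:13159061-13159160, plus strand: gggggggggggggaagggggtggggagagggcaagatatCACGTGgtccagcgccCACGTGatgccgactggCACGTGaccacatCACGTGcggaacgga
Gaa, chr11:119267787-119267886, plus strand: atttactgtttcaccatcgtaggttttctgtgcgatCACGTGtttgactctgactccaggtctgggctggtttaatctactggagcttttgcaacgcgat
Naglu, chr11:101070011-101070036, plus strand: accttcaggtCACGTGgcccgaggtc
Mcoln1, chr8:3500438-3500463, plus strand: tcgcgcttgtCACGTGttcagttcag
Mcoln1, chr8:3500464-3500489, plus strand: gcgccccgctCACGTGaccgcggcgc

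Lamp1, a major glycoprotein of the lysosomal membrane, held 4 copies within 100 bases, and Mcoln1, the calcium channel of that membrane, held a pair. Both genes had log2 fold changes between 0.13 and 0.32 in APP against WT mice and neither was called there.

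Among the transcription factors, Tfeb (chr17:47737030-47792419, plus strand, mm10) held 5.48, 8.90, 9.11 and 7.90 CPM in WT replicates 1, 3, 4 and 5. In vehicle-treated APP mice Tfeb had a lowest value of 9.89, a median of 12.6 and a highest value of 14.1 CPM, and in JQ1-treated APP mice 5.50, 8.66 and 10.7 CPM. Every vehicle-treated APP library thus lay above every WT library, while JQ1-treated APP mice overlapped both other groups. The log2 fold change of vehicle-treated APP against WT mice was 0.66 (SE 0.19, 12.4 ± 1.51 against 7.85 ± 1.66 CPM, SD, n = 6 and 4, edgeR adjusted p = 0.0784), which missed the threshold. The exact two-sided permutation test of the same difference gave p = 0.004762, the smallest that 6 against 4 samples can give. Permutation p-values of Tfeb were not adjusted, and the genes were chosen with earlier results of these data known, so they are descriptions only. Without WT replicate 1, the lowest of the WT libraries, the log2 fold change was 0.51 (edgeR adjusted p = 0.291).

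The log2 fold change of Tfeb for JQ1 against vehicle in APP mice was -0.56 (SE 0.17, 8.38 ± 2.07 against 12.4 ± 1.51 CPM, SD, n = 6 each, edgeR adjusted p = 0.0999, exact two-sided permutation p = 0.006494). Without the library labelled APP JQ1 replicate 4 it was -0.50 (edgeR adjusted p = 0.210, exact permutation p = 0.00866). DESeq2 called Tfeb in both comparisons (adjusted p = 0.0297 and 0.0194), and a correction for GC content brought the JQ1 difference to -0.24 (edgeR adjusted p = 0.662). Both comparisons use the same vehicle-treated APP libraries. Against WT mice, JQ1-treated APP mice differed by 0.10 (SE 0.19, adjusted p = 0.879) on the log2 scale.

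Tfe3 and Mitf, the relatives of Tfeb, varied less. Tfe3 held 41.1, 49.2, 51.8 and 54.0 CPM in WT replicates 1, 3, 4 and 5, from 46.02 through a median of 53.9 to 62.6 CPM in vehicle-treated APP mice, and from 39.2 through 49.9 to 54.4 CPM in JQ1-treated APP mice. All 3 groups of Tfe3 overlapped, and its log2 fold changes were 0.14 (SE 0.11) for APP against WT and -0.18 (SE 0.10) for JQ1 against vehicle in APP mice (edgeR adjusted p = 0.585 and 0.359). Mitf lay at 11.2, 11.2, 12.9 and 9.84 CPM in WT mice, at 10.2 to 13.4 CPM (median 12.3) in vehicle-treated APP mice and at 11.997 to 16.3 CPM (median 12.8) in JQ1-treated APP mice. The Mitf log2 fold changes were 0.08 (SE 0.13) and 0.17 (SE 0.11), with the 3 groups again overlapping. Per kilobase of exon, Tfeb was at 1.38 CPM and Mitf at 1.82 CPM in WT mice, below all other members except Atp6v0d2.

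**Figure D2:**
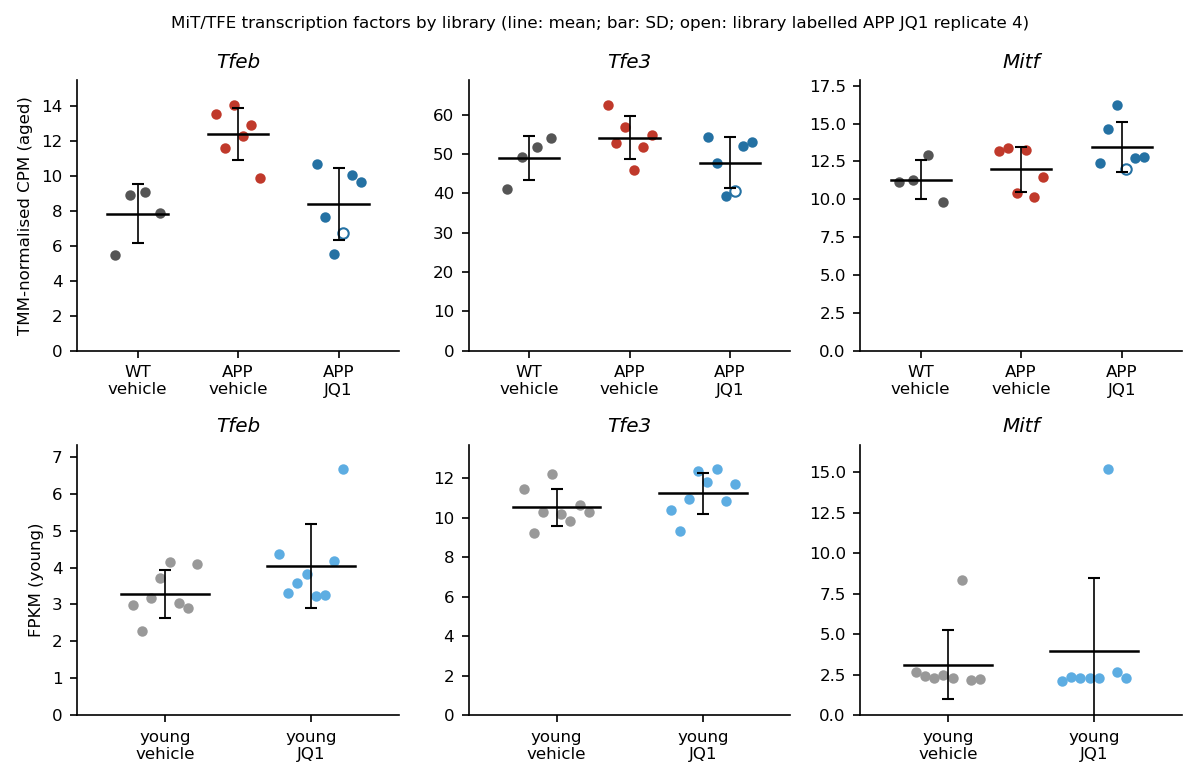
Tfeb, Tfe3 and Mitf in each library, with aged groups in CPM above and young groups in FPKM below. Points are libraries, lines are group means and bars are SD, and the open point is the library labelled APP JQ1 replicate 4. The 6 vehicle-treated APP libraries hold 9.89 to 14.1 CPM of Tfeb, above the 4 WT libraries at 5.48 to 9.11 CPM.

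In the lumen, all 14 genes had a log2 fold change above 0 in vehicle-treated APP against WT mice, with a median of 0.26 (0.01 over all genes tested), and 5 of them rose. In the fit without APP JQ1 replicate 4, 13 of the 14 were above 0, and without both doubtful libraries 12 were. Hexa (chr9:59539540-59565109), the alpha subunit of beta-hexosaminidase, which trims sugars from gangliosides, held 59.2, 54.7, 57.5 and 58.4 CPM in WT replicates 1, 3, 4 and 5. Vehicle-treated APP mice held from 94.9 through a median of 125 to 149 CPM of Hexa, and JQ1-treated APP mice from 62.6 through 120 to 150 CPM. No APP library reached down to the WT values, and the lowest JQ1 value, in replicate 4, was 93.3 CPM without that library. Hexa was 2.16-fold higher in vehicle-treated APP mice (log2 1.11, SE 0.18, edgeR adjusted p = 0.00828), and for JQ1 against vehicle the log2 fold change was -0.14 (SE 0.16, adjusted p = 0.691), or -0.01 without replicate 4.

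Gusb (chr5:129989011-130003049, minus strand), the enzyme beta-glucuronidase, had the largest fold change of the 14 and is a common reference gene in quantitative PCR. Gusb held 17.9, 17.3, 17.3 and 15.97 CPM in WT mice, from 30.7 through 50.4 to 56.0 CPM in vehicle-treated APP mice, and from 18.2 through 48.1 to 61.0 CPM in JQ1-treated APP mice. The WT libraries were close together and below every APP library, of which replicate 4 of the JQ1 group was the nearest (the other JQ1 libraries began at 35.0 CPM and the APP vehicle libraries at 30.7 CPM). The rise was 2.76-fold (log2 1.46, SE 0.27, edgeR adjusted p = 0.00879), and for JQ1 against vehicle the log2 fold change was -0.08 (SE 0.22, adjusted p = 0.894), or 0.09 without replicate 4.

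Npc2 (chr12:84754562-84773152, minus strand), which carries cholesterol within the lumen, held 61.5, 56.4, 62.9 and 57.5 CPM in WT mice. In vehicle-treated APP mice it held from 92.9 through 126 to 151 CPM and in JQ1-treated APP mice from 61.9 through 110 to 150 CPM. The APP vehicle libraries were all above WT, and the JQ1 libraries were so once replicate 4 was left out, when the lowest was 91.3 CPM. Npc2 rose 2.10-fold in vehicle-treated APP mice (log2 1.07, SE 0.20, edgeR adjusted p = 0.00879), and differed by -0.17 (SE 0.17, adjusted p = 0.645) for JQ1 against vehicle, or -0.04 without replicate 4.

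Grn (chr11:102430315-102437048), or progranulin, which is cleaved in lysosomes into smaller peptides, held 49.4, 63.1, 67.4 and 69.7 CPM in WT mice. It lay between 112 and 181 CPM (median 145) in vehicle-treated APP mice and between 58.8 and 182 CPM (median 132) in JQ1-treated APP mice, from 99.1 CPM without replicate 4. Vehicle-treated APP and WT libraries did not overlap. The rise was 2.34-fold (log2 1.22, SE 0.24, edgeR adjusted p = 0.00993) and lost its call without WT replicate 1 (log2 1.12, adjusted p = 0.0587). JQ1 against vehicle gave -0.22 (SE 0.20, adjusted p = 0.618), or -0.07 without JQ1 replicate 4.

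Naglu (chr11:101070012-101077672), an enzyme of heparan sulfate breakdown, was the least abundant of the 5 and the least stable call. It held 7.97, 10.4, 10.3 and 10.5 CPM in WT mice, from 13.3 through 18.8 to 20.2 CPM in vehicle-treated APP mice and from 7.26 through 15.4 to 22.2 CPM in JQ1-treated APP mice. The vehicle-treated APP and WT groups did not overlap, whereas JQ1 replicate 4, at 7.26 CPM, lay below the WT libraries. Naglu rose 1.82-fold (log2 0.86, SE 0.22, edgeR adjusted p = 0.0474) and kept its call in 4 of the 16 fits that each left out 1 library, namely those without APP JQ1 replicate 3, 4 or 6 or APP vehicle replicate 6. For JQ1 against vehicle the value was -0.25 (SE 0.19, adjusted p = 0.534), or -0.11 without JQ1 replicate 4 and -0.01 after a correction for GC content.

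**Figure D3:**
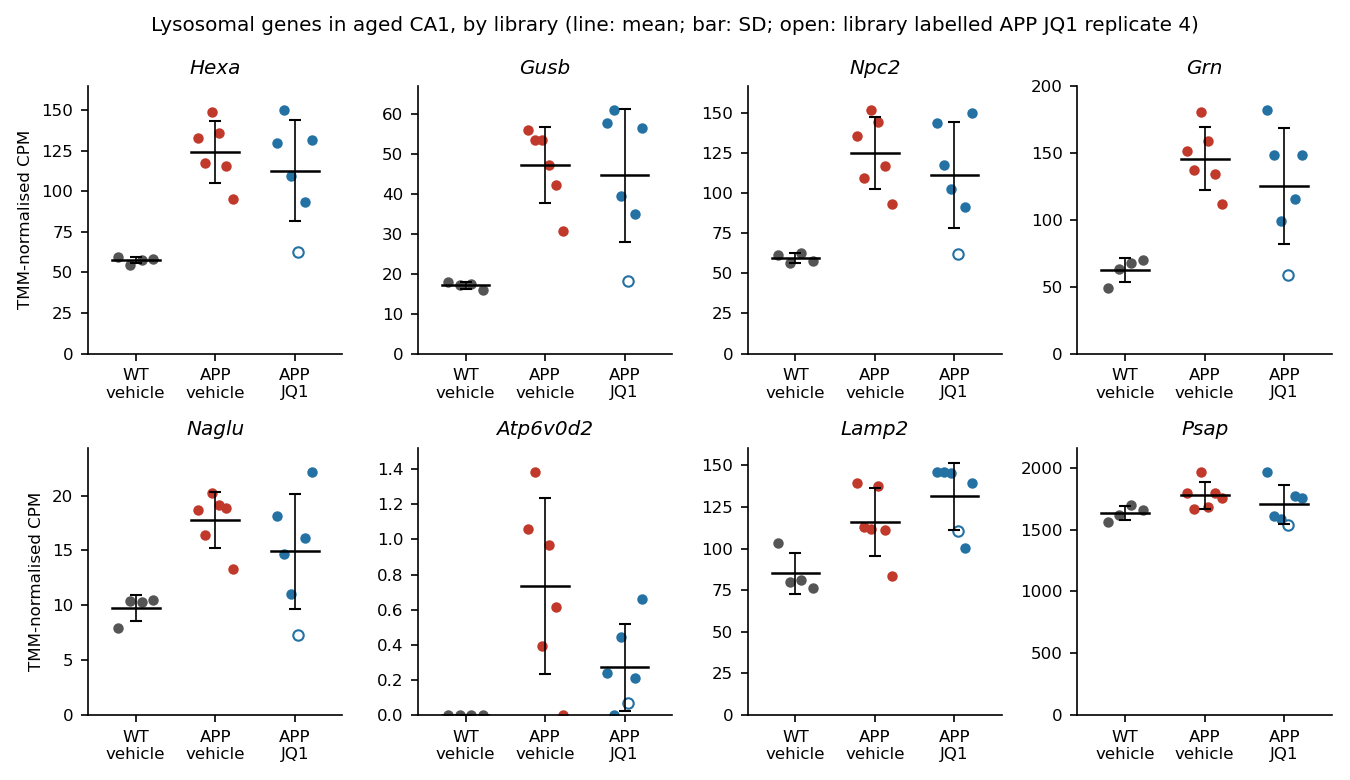
CPM in each library for the 5 lumen genes that rose in vehicle-treated APP mice, and for Atp6v0d2, Lamp2 and Psap. Points are libraries of WT vehicle, APP vehicle and APP JQ1 mice, lines are means and bars are SD. The open point, the library labelled APP JQ1 replicate 4, lies at 62.6 CPM for Hexa and 18.2 CPM for Gusb, beside the WT libraries.

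The other 9 lumen genes were not called by edgeR in any comparison with every library included, apart from Lipa, the acid lipase, which was called higher in APP against WT mice once GC content was corrected for. Their log2 fold changes in APP against WT mice ran from 0.00 for Ppt1 to 0.29 for Glb1. Psap (chr10:60277627-60302597), whose product is cut into the saposins that help enzymes reach lipids, was the most abundant of all 46 genes per kilobase of exon (596 CPM per kb in WT mice). Psap held 1559, 1620, 1703 and 1656 CPM in WT mice, 1666 to 1968 CPM (median 1777) in vehicle-treated APP mice and 1536 to 1962 CPM (median 1685) in JQ1-treated APP mice, with overlap between the groups. Its log2 fold change was 0.12 (SE 0.08, edgeR adjusted p = 0.520) in APP against WT mice. For JQ1 against vehicle, 13 of the 14 lumen genes had a log2 fold change below 0, with a median of -0.14 (0.00 over all genes) and a range from -0.25 to 0.17, and none was called. Without the library labelled APP JQ1 replicate 4, 10 of the 14 were below 0 and the median was -0.04. Gaa, the enzyme that breaks down glycogen in lysosomes, was the 1 among them with an unadjusted p under 0.05 (log2 -0.23, SE 0.08, adjusted p = 0.145).

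Markers of microglia moved in the same libraries as the 5 lumen genes. Of 10 general microglial markers, 5 rose in vehicle-treated APP against WT mice, and of 10 markers of plaque-associated microglia 8 rose. None of either list was called for JQ1 against vehicle in APP mice, and no marker of either list was at 0 in every library of a group. The 10 general markers summed to 273 to 309 CPM in WT mice, 475 to 702 CPM in vehicle-treated APP mice and 460 to 719 CPM in JQ1-treated APP mice without replicate 4, which itself held 288 CPM. The 5 lumen genes summed to 196 to 215 CPM in WT mice, 344 to 554 CPM in vehicle-treated APP mice, 351 to 531 CPM in JQ1-treated APP mice without replicate 4, and 209 CPM in replicate 4. The ratio of the 5 lumen genes to the microglial markers was 0.694 to 0.739 in WT mice, 0.720 to 0.941 in vehicle-treated APP mice and 0.701 to 0.786 in JQ1-treated APP mice, while the remaining lumen genes without Psap summed to 902 to 967, 958 to 1104 and 847 to 1018 CPM. Astrocyte markers also summed higher, from 1274 to 1361 CPM in WT and from 2311 to 6391 CPM in vehicle-treated APP mice. Neuronal markers summed lower, at 11101 to 12091 and 9425 to 10729 CPM, and Gfap was the one marker of these lists called in that comparison. In JQ1-treated APP mice without replicate 4 astrocyte markers summed to 2771 to 5802 CPM. Against WT mice 3 of the 6 astrocyte markers (Gfap, Aqp4 and Slc1a3) and no neuronal marker were called with every library. The 5 lumen genes were picked by their call in APP against WT mice. Their contrast with the remaining lumen genes is therefore partly fixed by that choice. The part of microglia and of the other cell types in the lumen result was not tested. In tissue RNA, more cells of a type and more RNA per cell cannot be told apart.

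**Figure D4:**
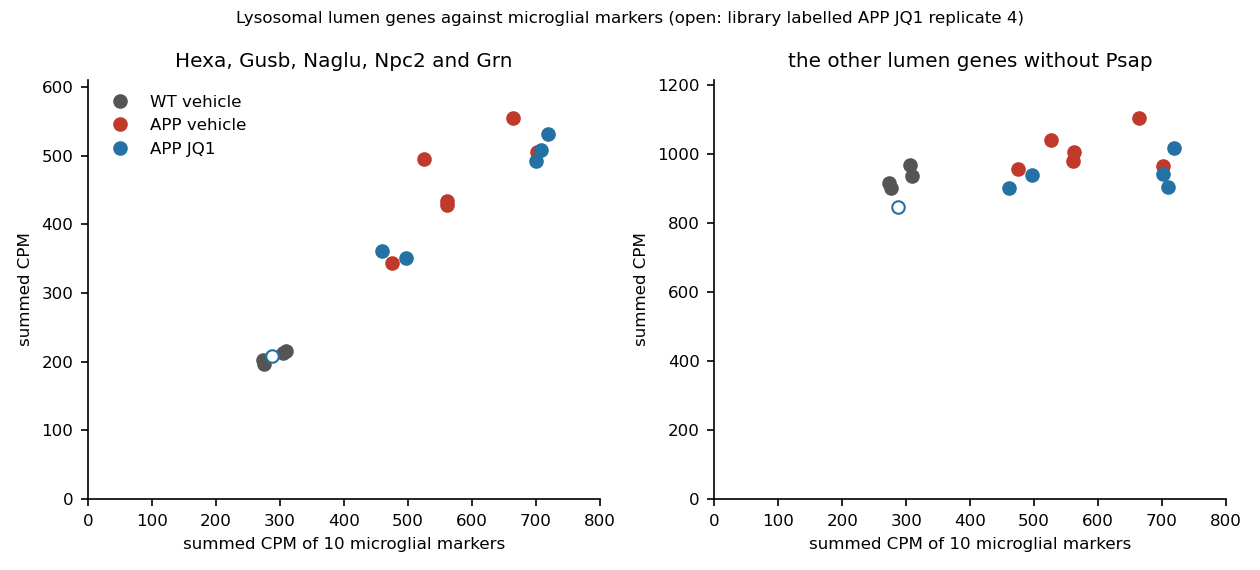
Summed CPM of the 5 lumen genes that rose, and of the remaining lumen genes without Psap, against the summed CPM of 10 microglial markers, with 1 point per aged library and the library labelled APP JQ1 replicate 4 as an open point. WT libraries sit at 273 to 309 CPM of markers and 196 to 215 CPM of the 5 genes, and vehicle-treated APP libraries at 475 to 702 and 344 to 554 CPM. The 5 genes were picked by their call in APP against WT mice, which partly fixes their contrast with the remaining genes.

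Of the 6 membrane genes, none was called in vehicle-treated APP against WT mice, with log2 fold changes from -0.19 to 0.45 and a median of 0.15. Lamp2 (chrX:38401357-38456454, minus strand), a membrane glycoprotein that also serves as the receptor of chaperone-mediated autophagy, held 103, 79.7, 81.3 and 76.2 CPM in WT mice, from 83.6 through 112 to 139 CPM in vehicle-treated APP mice and from 101 through 142 to 146 CPM in JQ1-treated APP mice. WT replicate 1 overlapped both APP groups. Lamp2 was 1.54-fold higher in JQ1-treated APP than in WT mice (log2 0.63, SE 0.14, edgeR adjusted p = 0.0272), a call that held in 9 of the 16 fits that each left out 1 library, and that was lost without APP JQ1 replicate 1, 2, 3 or 6 and without WT replicate 3, 4 or 5. In vehicle-treated APP against WT mice Lamp2 had a log2 fold change of 0.45 (SE 0.14, adjusted p = 0.124), which became 0.63 (adjusted p = 0.0176) after a correction for GC content. The difference between the 2 APP groups was 0.18 (SE 0.13, adjusted p = 0.486).

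Tmem106b (chr6:13069759-13089269), a membrane glycoprotein of late endosomes and lysosomes, had the largest difference between JQ1 and vehicle among the membrane genes. It held 217, 187, 179 and 175 CPM in WT mice, from 147 through 163 to 184 CPM in vehicle-treated APP mice, and from 171 through 211 to 258 CPM in JQ1-treated APP mice. The JQ1 libraries lay mostly above the APP vehicle libraries, and the groups overlapped between 171 and 184 CPM. The log2 fold change was 0.36 (SE 0.09, edgeR adjusted p = 0.0677, exact two-sided permutation p = 0.008658), and 0.34 (adjusted p = 0.145) without replicate 4. A correction for GC content brought it to 0.10 (adjusted p = 0.720). The permutation p was not adjusted, and Tmem106b was named for this large difference, so that p is a description only. Scarb2, the receptor that carries glucocerebrosidase to lysosomes, had 0.22 (adjusted p = 0.184), and Lamp1, Mcoln1 and Npc1 lay between -0.05 and 0.05.

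Of the 7 genes of the V-ATPase, the pump that acidifies the lysosome, Atp6v0d2 was the 1 that was called. Atp6v0d2 (chr4:19876841-19922605, minus strand), a tissue-restricted form of the d subunit best known from osteoclasts and macrophages, had 0 counts in each of the 4 WT libraries. The vehicle-treated APP libraries held 24, 28, 10, 18, 14 and 0 counts, and the JQ1-treated APP libraries 6, 0, 7, 1, 4 and 10. It was thus detected in 5 of 6 libraries of each APP group and in no WT library, at a level near the limit of detection. The gene passed the filter on low counts only through the APP libraries, so its p-values are given as a description, and a filter of at least 10 counts in every library removed it. A floor of 3 counts in each WT library corresponds to a mean of 0.137 CPM. The mean of vehicle-treated APP mice was 5.36 times this floor (0.737 CPM, edgeR adjusted p = 0.0254 against WT). The mean of JQ1-treated APP mice was 1.97 times it (0.271 CPM, adjusted p = 0.121 against WT, not called). The floor bounds the WT side only, as libraries of both APP groups also held fewer than 3 counts. The call was lost without APP vehicle replicate 4, without each of WT replicates 1, 3, 4 and 5 in turn, and without both doubtful libraries (adjusted p = 0.0506). For JQ1 against vehicle in APP mice the adjusted p was 0.350.

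The remaining 6 pump genes, all expressed in WT mice, had log2 fold changes between -0.26 and 0.00 in APP against WT mice and between -0.19 and 0.24 for JQ1 against vehicle, and none was called. Atp6v1a, the catalytic subunit of the pump, marked both ends with -0.26 (SE 0.12, adjusted p = 0.321) and 0.24 (SE 0.11, adjusted p = 0.249), from the same vehicle-treated APP libraries. Atp6ap1, an accessory subunit, held 440, 402, 399 and 408 CPM in WT mice, 373 to 441 CPM (median 396) in vehicle-treated APP mice and 374 to 421 CPM (median 406) in JQ1-treated APP mice. Its 3 groups lay on top of each other, with log2 fold changes of -0.04 (SE 0.07) and 0.01 (SE 0.06).

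None of the 13 autophagy genes was called in the 3 aged comparisons by edgeR, nor any of the 12 tested in young mice by limma, with medians of -0.02 for APP against WT and 0.02 for JQ1 against vehicle in APP mice. Rb1cc1 (chr1:6206197-6276648), also called Fip200, a scaffold of the ULK1 kinase complex that starts autophagosome formation, had the largest change in both. Rb1cc1 held 99.5, 86.2, 79.6 and 74.9 CPM in WT mice, from 62.0 through 69.2 to 75.9 CPM in vehicle-treated APP mice, and from 73.5 through 86.4 to 108 CPM in JQ1-treated APP mice. The vehicle-treated APP libraries were the lowest and overlapped each of the other groups only at the edge. The log2 fold change for JQ1 against vehicle was 0.36 (SE 0.10, edgeR adjusted p = 0.075, exact two-sided permutation p = 0.006494), 0.32 (adjusted p = 0.168) without replicate 4 and 0.10 (adjusted p = 0.688) after a correction for GC content. For APP against WT it was -0.29 (SE 0.11, adjusted p = 0.210), again from the same vehicle-treated APP libraries. The permutation p was not adjusted, and Rb1cc1 was named for its large changes, so that p is a description only.

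Calls of Tmem106b and Rb1cc1 for JQ1 against vehicle depended on single libraries as well as on the test. Without WT replicate 1, which enters this comparison through the shared estimate of the spread, both passed the threshold (edgeR adjusted p = 0.0416 and 0.0466). Tmem106b also passed without APP JQ1 replicate 6, and Rb1cc1 without APP JQ1 replicate 1.

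Of the ubiquitin-like proteins that decorate the autophagosome, Gabarapl1 was the most abundant (354 CPM per kb in WT mice, second to Psap among the 46 genes). It held 869, 671, 641 and 667 CPM in WT mice, 590 to 667 CPM (median 656) in vehicle-treated APP mice and 545 to 763 CPM (median 647) in JQ1-treated APP mice. Apart from WT replicate 1 the groups overlapped, and the log2 fold changes were -0.15 (SE 0.10) and 0.03 (SE 0.09). Map1lc3a, an LC3 protein, had -0.22 (SE 0.10, adjusted p = 0.236) for JQ1 against vehicle, Map1lc3b had 0.02 (SE 0.07) and Gabarap 0.11 (SE 0.10). Sqstm1, or p62, the receptor that brings ubiquitinated cargo to the autophagosome, had 0.04 (SE 0.08) in APP against WT and -0.07 (SE 0.07) for JQ1 against vehicle. The kinase Ulk1, Becn1 and Uvrag of the lipid kinase complex, the scaffold Wipi2, and Atg5, Atg7 and Atg9a lay between -0.13 and 0.12 in APP against WT and between -0.16 and 0.19 for JQ1 against vehicle.

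Mtor, the kinase of mTORC1, held 130, 141, 140 and 143 CPM in WT mice, 115 to 171 CPM (median 135) in vehicle-treated APP mice and 122 to 159 CPM (median 132) in JQ1-treated APP mice. Flcn, folliculin, which acts on the Rag GTPases and through them on Tfeb and Tfe3, held 59.9, 70.4, 75.1 and 74.9 CPM in WT mice, 65.9 to 92.0 CPM (median 81.5) in vehicle-treated APP mice and 67.0 to 79.6 CPM (median 74.4) in JQ1-treated APP mice. Neither gene separated the groups. Rptor, the scaffold of mTORC1, and Flcn each had a log2 fold change of 0.21 (SE 0.09) in APP against WT mice (edgeR adjusted p = 0.295 and 0.285), and all 3 genes were below 0 for JQ1 against vehicle, from -0.14 to -0.06, without a call.

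When JQ1-treated APP mice were set against WT mice, 5 of the 46 genes rose and none fell (1.93% and 0.13% of all genes). These were Hexa (log2 0.97, SE 0.18, edgeR adjusted p = 0.0143), Gusb (1.39, SE 0.27, adjusted p = 0.0148), Npc2 (0.90, SE 0.20, adjusted p = 0.0246), Grn (1.01, SE 0.23, adjusted p = 0.0334) and Lamp2. Without the library labelled APP JQ1 replicate 4, 8 rose, where 3.6% of all genes did, the additional ones being Naglu, Asah1 and Lamp1. Without both doubtful libraries 6 rose, and Asah1 and Lamp1 were no longer called (edgeR adjusted p = 0.133 and 0.0969). Asah1, acid ceramidase, then lay at 52.5 to 60.2 CPM in WT mice and from 60.3 CPM in JQ1-treated APP mice. Lamp1 lay at 309.9 to 349 CPM in WT mice and from 358 CPM in JQ1-treated APP mice, so that neither gene overlapped. Without WT replicate 3, 4 or 5 no member was called in this comparison, and without WT replicate 1 Hexa and Lamp2 were. The vehicle-treated APP against WT comparison shares the WT libraries, and gave 1.11, 1.46, 1.07 and 1.22 for Hexa, Gusb, Npc2 and Grn.

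Separation of the groups gave a further description. In vehicle-treated APP against WT mice 6 of the 46 genes were higher in every APP library than in every WT library (Tfeb and the 5 lumen genes) and none was lower, where 4.94% of all genes were separated upward and 2.05% downward. For JQ1 against vehicle in APP mice no member was separated in either direction, with or without replicate 4, where 0.878% and 1.15% of all genes were with every library. In JQ1-treated APP against WT mice Hexa and Gusb were separated upward and Uvrag downward (2.55% and 1.17% of all genes). Without the library labelled APP JQ1 replicate 4, 7 members were separated upward (Hexa, Gusb, Naglu, Asah1, Npc2, Grn and Lamp1) and Uvrag downward, where 5.87% and 1.84% of all genes were. Uvrag, which takes part in autophagosome and endosome maturation, held 32.3 to 34.5 CPM in WT and 26.9 to 31.1 CPM in JQ1-treated APP mice (log2 -0.18, SE 0.10, edgeR adjusted p = 0.442).

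A further 127 genes of the same pathway, listed by function, were read in the same fits, and 124 of them were tested in aged mice. This list too was drawn up with earlier results of these data known. In vehicle-treated APP against WT mice 10 rose and 1 fell (2.49% and 0.0825% of all genes), and without WT replicate 1, 4 rose and none fell. The rises included 7 of 22 further lumen genes, among them Man2b1, a mannosidase, at 1.29 (SE 0.23, edgeR adjusted p = 0.00879), and Dnase2a, the lysosomal nuclease, at 0.89 on the log2 scale. In the membrane Cd68, a glycoprotein of macrophage lysosomes, rose by 2.57 (SE 0.46, adjusted p = 0.00926) and Laptm5 by 2.03, and in the pump the a3 subunit Tcirg1 by 0.90 (adjusted p = 0.0188). Cd68 and Laptm5 are also used as markers of microglia and other myeloid cells. Of 43 further autophagy genes 1 was called, the protease Atg4c, which fell by 0.37 (adjusted p = 0.0364). Calls of Cd68, Laptm5, Tcirg1 and Atg4c were among those lost without WT replicate 1.

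For JQ1 against vehicle in APP mice 1 of the 124 rose and 4 fell (0.619% and 0.466% of all genes). Rictor, the scaffold of mTORC2, rose by 0.49 (SE 0.09, edgeR adjusted p = 0.0159), and the lysosomal membrane proteins Atp13a2, Abcb9 and Spns1 fell by 0.46, 0.42 and 0.42, and the lipid transfer protein Atg2a by 0.48 on the log2 scale (adjusted p = 0.0249 to 0.0382). Without the library labelled APP JQ1 replicate 4, when 0.366% of all genes rose and 0.0649% fell, only Rictor remained called (adjusted p = 0.038), without both doubtful libraries its adjusted p was 0.0582, and after a correction for GC content none of the 5 was called. In JQ1-treated APP against WT mice 6 of the 124 rose (1.93% of all genes), among them Man2b1, Gm2a, Dnase2a, Laptm5 and Cd68. Without APP JQ1 replicate 4, 10 rose, where 3.6% of all genes did. Without WT replicate 1, 2 rose, and without WT replicate 3, 4 or 5 none was called.

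In young WT mice 45 of the 46 genes had a locus in the FPKM files, Map1lc3b was not analysed there, and 5 (Gabarap, Mcoln1, Asah1, Glb1 and Atp6ap1) shared a joined locus with an overlapping gene, so that their values cannot be told apart from those of the neighbour. The level of Atp6v0d2 was at most 0.0279 FPKM in any young mouse and it was not tested. The log2 fold changes of the 44 genes tested ran from -0.09 to 0.28 with a median of 0.01 (0.00 over all loci). No member separated the young groups, where 0.0109% of all loci were separated upward and 0.0163% downward. Scarb2 had the single unadjusted p under 0.05, at -0.09 (SE 0.03, limma adjusted p = 0.981).

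Tfeb had the largest value of the young comparison. It lay between 2.27 and 4.15 FPKM (median 3.10) in vehicle-treated and between 3.22 and 6.67 FPKM (median 3.71) in JQ1-treated young mice, and the groups overlapped. The log2 fold change was 0.28 (SE 0.15, limma adjusted p = 0.981, exact two-sided permutation p = 0.0909), and 0.17 without JQ1 replicate 8, the highest library. Hexa was at 22.6 ± 1.74 and 23.2 ± 1.67 FPKM, Gusb at 7.12 ± 0.763 and 6.94 ± 0.862 FPKM, and Psap at 551 ± 21.9 and 556 ± 29.1 FPKM (SD, n = 8 each, vehicle and JQ1). Tmem106b (0.01, SE 0.06) and Rb1cc1 (0.05, SE 0.06) differed by no more than their error on the log2 scale. Microglial markers summed to 107 to 123 FPKM with vehicle and 93.5 to 122 FPKM with JQ1. The young and aged experiments differ in age, strain label, days of treatment and unit. By the authors' methods the young mice and the APP line also differ in sex. Values of the young and aged experiments are not compared by a test.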

How the data were processed

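The authors sequenced CA1 RNA on a HiSeq2000 and aligned reads to mm10 with STAR. For aged mice they deposited raw counts per gene, made with htseq, and for young mice FPKM made with cufflinks/cuffdiff. The submitters' processing notes also name CASAVA 1.8.2 and TopHat. Values were at hand for 32 of the 33 samples listed (WT replicate 2 was not analysed here). Groups came from the labels alone.

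Counts were normalized with TMM in edgeR 4.0.16, filtered with filterByExpr (16962 genes kept) and tested with the quasi-likelihood test (robust) in 1 fit of the 3 aged groups. FPKM were tested with limma 3.58.1 (trend, robust) on log2(FPKM + 0.1), which understates changes of low genes, for 18420 loci with at least 0.5 FPKM in at least 8 of 16 samples. The threshold was a Benjamini-Hochberg adjusted p under 0.05 over all features tested. Named genes were also tested with exact two-sided permutation tests on log2(value + 0.1), whose smallest p is 0.002165 for 6 against 6, 0.004762 for 6 against 4 and 0.0001554 for 8 against 8. These permutation p-values were not adjusted over the genes, and some genes were named for their large change in the comparison tested. The fits were tested on simulated data. No gene set test was run. Some items are not reported here.

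All 46 genes may be named. Values per library are given for Tfeb, Tfe3 and Mitf, for each gene with an adjusted p under 0.05, and for the gene of each role with the largest change in APP JQ1 against APP vehicle and in APP vehicle against WT vehicle or with the highest FPKM in young vehicle-treated mice (18 genes). Uvrag, Gaa, Scarb2 and Asah1 were described further after their values were seen. The genes, the lists and the marker genes were chosen with earlier results of these data known. Gene coordinates and exonic lengths came from GENCODE M21 on mm10. For Uvrag, which had 2 loci in the FPKM files, the higher was used.

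Between 15.4% and 26.9% of uniquely aligned reads per aged library lay outside exons. By group this was 16.3% to 18.9% in WT, 15.4% to 24.5% in APP vehicle and 16.9% to 26.9% in APP JQ1 libraries. Alignments that were not unique made up 26.7% to 29.9%, 28.1% to 31.1% and 29.7% to 36.4% in the same order. The part of these differences in the group comparisons was not tested. Intervals and floors of 3 counts cover counting error only. Alternatives were DESeq2 1.42.0, other size factors, filters and pseudocounts, fits of the compared groups only, a replicate block, corrections for GC content and length (known for 98.9% of the genes tested), and leaving out each library. Software was R 4.3.3 and Python 3.11.15.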

Additional observations from a re-analysis of the deposited data

Results flagged for a closer look

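In 6 of the 89 groups of named genes that were tested, the highest or lowest library stood apart from the others by Dixon's test, which chance gives in about 1 of 20 groups. In young mice Tfeb was at 6.67 FPKM in JQ1 replicate 8. Mitf was at 15.2 FPKM in young JQ1 replicate 6 and at 8.35 FPKM in young vehicle replicate 6, against group medians of 2.29 and 2.35 FPKM. Gusb was lowest in young vehicle replicate 2, at 5.53 FPKM. In aged WT mice, replicate 1 held the lowest Naglu value, 7.97 CPM, and the highest Gabarapl1 value, 869 CPM.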

How the results depend on the processing

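No called value changed direction under any alternative run. Counting each log2 fold change of a named gene under each alternative, 1692 values kept their side of the threshold without a change of sign larger than the spread between samples, 5 uncalled values had such a change, 76 lost a call and 17 gained one. Leaving out each library in turn gave 0 to 2 called members for JQ1 against vehicle in APP mice, 3 to 7 for APP against WT mice, 0 to 8 for JQ1-treated APP against WT mice and 0 to 0 in young mice, and 0 to 6, 4 to 12, 0 to 10 and 0 to 0 of the other pathway genes. Among the other alternatives, DESeq2 called 3 members for JQ1 against vehicle (0 in the report) and 7 for each APP group against WT mice. A fit of only the compared groups called 3 for JQ1-treated APP against WT mice (5 in the report). Of the other pathway genes DESeq2 called 7 for JQ1 against vehicle, 13 for APP against WT and 9 for JQ1-treated APP against WT mice. Other pathway genes called for JQ1 against vehicle (5) numbered 0 with corrections for GC content or GC content and length and 0 without both doubtful libraries, and for JQ1-treated APP against WT mice (6) they numbered 1 in a fit of only the compared groups and 10 without both libraries. The cause was not tested. Leaving out both libraries was chosen after the data had been seen.

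The replicate numbers are not stated to mark a shared animal, litter or day. Same-numbered libraries deviated together with r from -0.471 to 0.342 in aged mice (4 of 14 pairs over 0.1). Differently numbered aged libraries had r from -0.447 to 0.531 (26 of 70 pairs over 0.1). In young mice 1 of 8 same-numbered pairs and 0 of 56 differently numbered pairs were over 0.1. Such correlations cannot exclude a shared litter or day. With the number as a replicate block, members called were 0 for APP against WT and 0 for JQ1-treated APP against WT mice, and 1 (Hexa) and 0 when the block was combined with correcting for GC content and length. Other pathway genes called under the block, alone or with this correction, were 0 in each of the 3 aged comparisons. Over all genes the block left 87, 35 and 21 calls in the 3 comparisons, against 184, 436 and 349, and a correction for GC content left 26, 421 and 361.

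Depth limits Atp6v0d2, at 0 to 28 counts per library, while FPKM give no depth.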
